A study of Macaca mulatta with 14 samples.

Results

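Testis of 3 peripubertal rhesus macaques, aged 1135, 1205 and 1487 days, was compared with testis of 5 immature animals, aged 16, 20, 215, 471 and 739 days. The groups were formed from the age labels alone, which give no pubertal stage, testis weight or histology, and the boundaries between them were set for this work. All animals were male and described as healthy, and the tissue was taken after sudden death and frozen. The animals of 16 and 1487 days each gave a pair of technical libraries, so the comparison used 10 of the 14 libraries and 8 of the 12 animals of a small RNA time course over the lifespan. Each technical pair was averaged, or summed where recovered reads were tested, and counted as 1 animal. The 4 mature animals of 2355, 2570, 8104 and 9518 days entered the shared estimate of spread and are given as a reference for how far each peripubertal animal had progressed. Species and tissue labels name the rhesus macaque, while the free text of the sample descriptions speaks of human individuals. Abundance was deposited for 538 miRNA names in RPM (reads of a name as a share of all reads of its library, on a fixed common total), and 322 names that reached 1 RPM in at least 3 animals were tested. The libraries of the 8 animals held 4381953 to 5607623 reads.

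miRNAs are short RNAs that bind messenger RNAs and lower their translation or stability. In the testis before puberty the seminiferous cords hold Sertoli cells and spermatogonia, and at puberty germ cells enter meiosis and form spermatids, so that the tissue gains cell types it did not hold before. The family of miR-34b, miR-34c and miR-449 is known from spermatocytes and round spermatids, and mice that lack the family are infertile. It therefore served here as the marker list for meiotic and later germ cells. Many X-linked genes are silenced during meiosis, the let-7 family is known from developmental timing, and the imprinted DLK1-DIO3 cluster is known from fetal and early postnatal tissue. Individual macaques differ in the age at which spermatogenesis begins.

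By these germ cell markers the 3 peripubertal animals were unlike each other, and the youngest had the highest values. miR-34c-5p, the most abundant member, stood at 145, 49.9, 52.7, 985 and 121 RPM in the immature animals of 16, 20, 215, 471 and 739 days. In the peripubertal animals of 1135, 1205 and 1487 days it stood at 7887, 349 and 147 RPM, and the technical libraries at 1487 days gave 119.7 and 174 RPM. The animal of 1135 days lay above every immature animal, and the other two lay within the immature range, below the juvenile of 471 days. In the mature animals miR-34c-5p ran from 15138 RPM at 2570 days to 37698 RPM at 2355 days, above all peripubertal animals. The group means were 271 ± 401 RPM in immature (SD, n = 5) and 2794 ± 4412 RPM in peripubertal testis (SD, n = 3), and the log2 fold change was 2.43 (SE 1.03, limma adjusted p = 0.302). It was 0.72 (adjusted p = 0.792) when the animal of 1135 days was left out and 3.14 (adjusted p = 0.0296) when that of 471 days was. Within the libraries numbered 1 to 7 it was 2.30 and within those numbered 8 to 14, which do not hold the animal of 1135 days, 1.35, with no call in either.

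**Figure D1:**
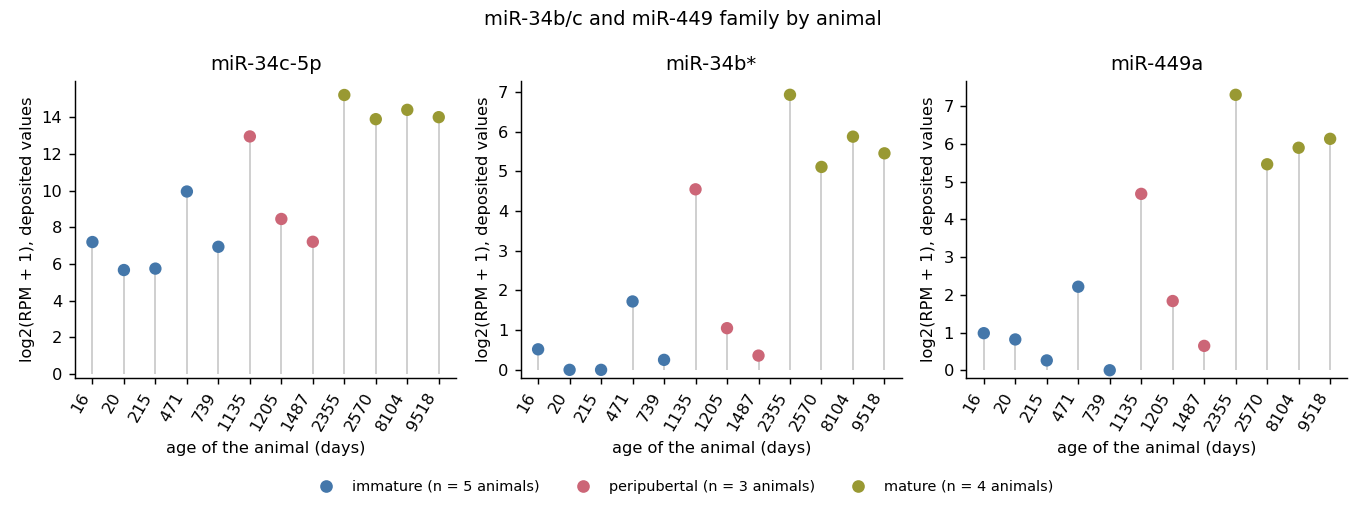
Deposited abundance of miR-34c-5p, miR-34b* and miR-449a on a log2(RPM + 1) axis, with 1 point per animal ordered by age in days and coloured by group. The animal of 1135 days stands near the mature animals, while those of 1205 and 1487 days stand within the range of the immature animals, of which that of 471 days is the highest.

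miR-34b* and miR-449a, like miR-34c-5p, had their highest value of the 8 animals at 1135 days and the next highest at 471 days. miR-34b* was at 0.431, 0, 0, 2.30 and 0.190 RPM in the immature animals by age, and at 22.4, 1.07 and 0.283 RPM in the peripubertal animals by age. Its log2 fold change was 1.49 (SE 0.727, limma adjusted p = 0.302). It was 0.20 (adjusted p = 0.896) when the animal of 1135 days was left out, 1.79 (adjusted p = 0.0535) when that of 471 days was, and 2.61 (adjusted p = 0.0136) when those of 471 and 1487 days were both left out. For miR-449a the immature animals stood at 0.977, 0.761, 0.198, 3.64 and 0 RPM and the peripubertal animals at 24.6, 2.57 and 0.565 RPM. Its log2 fold change was 1.53 (SE 0.729, limma adjusted p = 0.302). Leaving out the animal of 1135 days gave 0.38 (adjusted p = 0.840), and leaving out that of 471 days 1.87 (adjusted p = 0.0492). In both names the animal of 471 days, a juvenile by age, was above the peripubertal animals of 1205 and 1487 days. A value of 0 RPM was a count of 0 in the library, which allows at most 0.571 RPM at 20 days, 0.594 at 215 days and 0.571 at 739 days, counting error only.

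The 6 names of the family were above the 5 immature animals at 1135 days and 0 were at 1205 or 1487 days, as deposited and also after median scaling. Over all tested names 7.76% as deposited and 28.6% after scaling were above all immature animals at 1135 days. Median scaling divides each library by its own median over the 276 names that had reads in every library, and places the middle of the miRNA distribution of each animal at about the same level. Summed over the family, scaled values ran from 17.3 to 2098 in immature animals and were 16650 at 1135 days, 405 at 1205 days and 122 at 1487 days. miR-34b, with 23 reads at 1135 days, and miR-449b, with 4, had 0 reads at 1205 and 1487 days. miR-34c-3p had 3 reads at 1135 days and 2 at 471 days. Only 1 of the 6 names met the filter through immature animals alone and 3 met it within the 8 animals, so nothing is read from the count over the family. By the values of miR-34c-5p, miR-34b* and miR-449a the animal of 1135 days was the only one of the 3 above the immature range, and peripubertal is used below as the name of an age class. In tissue RNA, fewer cells of a type and less RNA per cell cannot be told apart.

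The share of each library taken by the listed miRNAs differed widely among the animals, which moves every deposited value. It was 61.2%, 79.3%, 46.2%, 16.1% and 27.7% in the immature animals by age and 13.01%, 16.5% and 28.1% in the peripubertal animals. The means were 46.1% ± 25.3 (SD, n = 5) and 19.2% ± 7.91 (SD, n = 3), an immature excess that did not pass an exact two-sided permutation test (p = 0.143, the smallest of 56 splits being 0.0179). Against the 3 juveniles alone, at 30.0% ± 15.2 (SD), the exact p was 0.5, where 20 splits allow none below 0.1. Within the libraries numbered 1 to 7 the difference was -32.1 percentage points and within those numbered 8 to 14 it was -22.3, where 10 splits allow no p below 0.1. What the remaining reads were is not given in the sources used here.

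In the comparison of the groups no miRNA passed the threshold on the deposited values: 0.0% of the 322 names were called in either direction by limma at an adjusted p of 0.05. At an unadjusted p under 0.05 there were 6 higher (1.86%) and 44 lower (13.7%), and the median log2 fold change over all tested names was -0.71. After median scaling that median was -0.09, and 29 names were higher (9.01%) and 35 lower (10.9%) at an unadjusted p under 0.05. On that scale 3 names, all lower, passed the adjusted threshold (0.932%), and they are described next. edgeR called 0 on recovered reads with TMM and with RLE scaling, with 50 higher (15.5%) and 22 lower (6.83%) at an unadjusted p under 0.05 with TMM and 37 (11.5%) and 30 (9.32%) with RLE. DESeq2 called 7 higher (2.17%) and 15 lower (4.66%), 6.83% in all, among them miR-1283, miR-1323, miR-375 and miR-429 higher and miR-708, miR-335, miR-181a and miR-199a-3p lower.

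Both the reference ages and a single juvenile moved these counts. On the deposited values limma called 152 names lower (47.2%) and 2 higher (0.621%) against the neonates of 16 and 20 days alone (47.8% in all). The higher names were miR-1283 and miR-34b*. Listed miRNAs took 61.2% and 79.3% of the reads in these neonates and 13.01% to 28.1% in the peripubertal animals. The contrast with the neonates was not fitted after median scaling. Against the juveniles alone limma called 0, with 8 higher (2.48%) and 4 lower (1.24%) at an unadjusted p under 0.05. The median log2 fold changes were -1.38 against the neonates and -0.13 against the juveniles in these contrasts. They share the peripubertal animals, and the difference between them was not tested. Without the animal of 471 days 58 names were called lower (18.0%) and 2 higher (0.621%), the latter miR-34c-5p and miR-449a (18.6% in all), and after median scaling 9 were called in each direction (2.8% each, 5.59% in all). With neonates and juveniles fitted as separate stages 73 were lower (22.7%) and 4 higher (1.24%), 23.9% in all, the latter being miR-1283, miR-375, miR-34b* and miR-449a. These names of higher miRNAs were chosen after their values were seen.

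miR-708 had the lowest adjusted p of the deposited comparison and was called lower after median scaling. It lies in an intron of the neuronal adhesion gene TENM4 in human. Immature animals stood at 18.3, 40.4, 23.6, 8.05 and 12.2 RPM by age, and peripubertal animals at 2.75, 3.64 and 2.66 RPM. The groups did not overlap on either scale. As deposited the 3 peripubertal animals, with 15, 17 and 28 reads by age, were close to each other. Median scaling divided their values by 0.477, 0.870 and 1.21 by age, which placed them further apart. The log2 fold change was -2.23 (SE 0.616, limma adjusted p = 0.299) as deposited and -1.56 (SE 0.352, adjusted p = 0.0452) after median scaling. The scaled call was lost without any one of the animals of 20, 215, 739, 1205 and 1487 days (adjusted p = 0.102, 0.107, 0.0543, 0.123 and 0.121) and with the 8 animals fitted alone (0.100), while the log2 fold change stayed between -1.26 and -1.81 without any 1 animal.

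miR-199a-3p and miR-199b-3p, which share nearly all their reads and count as 1 measurement, were the other names called lower after median scaling. The miR-199 and miR-214 genes are known from mesenchymal and connective tissue cells. miR-199a-3p stood at 103088, 151883, 78911, 14141 and 44523 RPM in the immature animals by age and at 8559.8, 14831 and 32037 RPM in the peripubertal animals. As deposited the groups overlapped, since the immature animal of 471 days was below those of 1205 and 1487 days. Scaled values were 50488, 51831, 49612, 29913 and 47394 in immature and 17950.2, 17043 and 26386 in peripubertal testis, without overlap. The log2 fold change was -1.91 (SE 0.705, limma adjusted p = 0.302) as deposited and -1.17 (SE 0.228, adjusted p = 0.0168) after scaling. Without the animals of 215, 1135 or 1205 days the scaled adjusted p was 0.0724, 0.0514 and 0.123, and with the 8 animals fitted alone it was 0.0645. Against the juveniles alone the scaled log2 fold change was -1.04 (adjusted p = 0.111). miR-199a-5p, from the same hairpins, was at 333, 379, 249, 57.1 and 136 RPM in immature and at 31.7, 62.9 and 97.0 RPM in peripubertal animals. Its scaled log2 fold change was -0.95 (SE 0.277, limma adjusted p = 0.0979), and its scaled values were separate too.

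**Figure D2:**
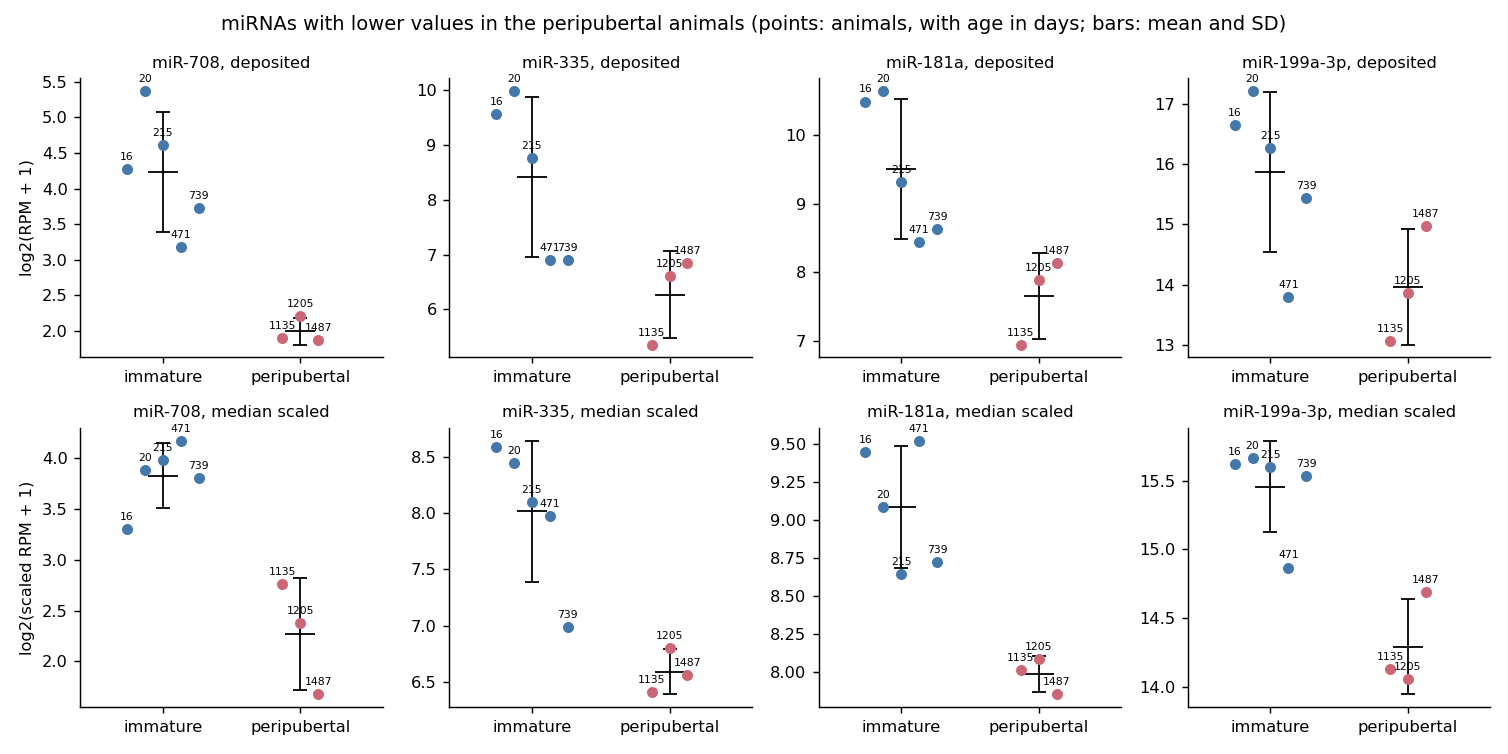
miR-708, miR-335, miR-181a and miR-199a-3p in immature and peripubertal testis, on log2(RPM + 1) of the deposited values (top) and of the median scaled values (bottom). Points are animals labelled with their age in days, and bars give the mean and SD of the 5 immature and 3 peripubertal animals. The groups do not overlap on either scale for the first 3 names, while miR-199a-3p overlaps as deposited and is separate after scaling.

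Names of at least 10 RPM whose peripubertal animals were all outside the immature range on both scales were 0 higher and 3 lower. These were miR-708, miR-335 and miR-181a. miR-335, from an intron of the imprinted gene MEST, was at 755, 1013, 433, 118 and 118 RPM in the immature animals by age and at 40.0, 96.3 and 113 RPM in the peripubertal animals. The peripubertal animals of 1205 and 1487 days were thus close to the juveniles of 471 and 739 days as deposited. Its log2 fold change was -2.15 (SE 0.752, limma adjusted p = 0.302) and -1.42 (SE 0.336, adjusted p = 0.0537) after scaling. miR-181a, known from lymphocyte development, was at 1431, 1590.0, 636, 346 and 397 RPM in immature and at 123, 236 and 279.6 RPM in peripubertal animals. Its log2 fold change was -1.84 (SE 0.699, limma adjusted p = 0.302), and -1.10 (SE 0.277, adjusted p = 0.0712) after scaling. Without the animal of 739 days the scaled value of miR-335 was -1.67 (adjusted p = 0.0116), and without that of 471 days miR-335 and miR-181a had scaled adjusted p-values of 0.0338 and 0.0493. The other fits without 1 animal and the 8 animals alone gave no call, with scaled adjusted p-values of 0.113 to 0.176 for miR-335 and 0.0543 to 0.206 for miR-181a.

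With no minimum level, 6 names were higher (1.86%) and 12 lower (3.73%) in all 3 peripubertal animals than in all 5 immature animals as deposited, and 6 (1.86%) and 25 (7.76%) after scaling. On both scales there were 1 higher (0.311%) and 5 lower (1.55%). The higher name was miR-135a*, at 1.75, 1.71, 1.78, 0.767 and 0.381 RPM in immature and 3.30, 3.0 and 3.04 RPM in peripubertal animals. The lower names besides the 3 above were miR-505*, at 4.56 to 10.6 RPM in immature and 0.550 to 2.36 RPM in peripubertal animals, and miR-219-1-3p, at most 2.09 RPM. miR-375, known from pancreatic islets and neuroendocrine cells, was separate after scaling alone. It stood at 0.622, 0, 0.198, 0 and 0.190 RPM in immature animals, at 6.42, 1.28 and 0.387 RPM in peripubertal animals and at 8.15 to 21.4 RPM in mature animals. miR-135a*, miR-505*, miR-219-1-3p and miR-375 were chosen after their values were seen.

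The distance of each peripubertal animal to the others was taken as the median absolute log2 difference of scaled values over 164 names with a mean of at least 10 RPM. The animal of 1135 days lay at 0.430 to 0.498 from the mature animals and at 0.542 to 0.863 from the immature animals. The animal of 1205 days lay at 0.664 to 0.771 from the mature animals, and its nearest animals were those of 1487 days (0.447) and 739 days (0.529). The animal of 1487 days was nearest to the juveniles of 215 days (0.372) and 739 days (0.377) and lay at 0.682 to 0.835 from the mature animals. Technical libraries differed by 0.310 at 16 days and 0.208 at 1487 days. Pairs of immature animals lay from 0.251 (215 and 739 days) to 0.775 (20 and 471 days) apart, a range that overlaps most of these distances. All 4 mature animals were thus nearer to the animal of 1135 days than any immature animal was, and for the animals of 1205 and 1487 days the juveniles were nearer than the mature animals. The neonates of 16 and 20 days, at 0.802 and 0.8965, were further from the animal of 1205 days than any mature animal. The names that set these distances include those of the germ cell family, and each distance is a value of 1 pair of animals without a test.

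**Figure D3:**
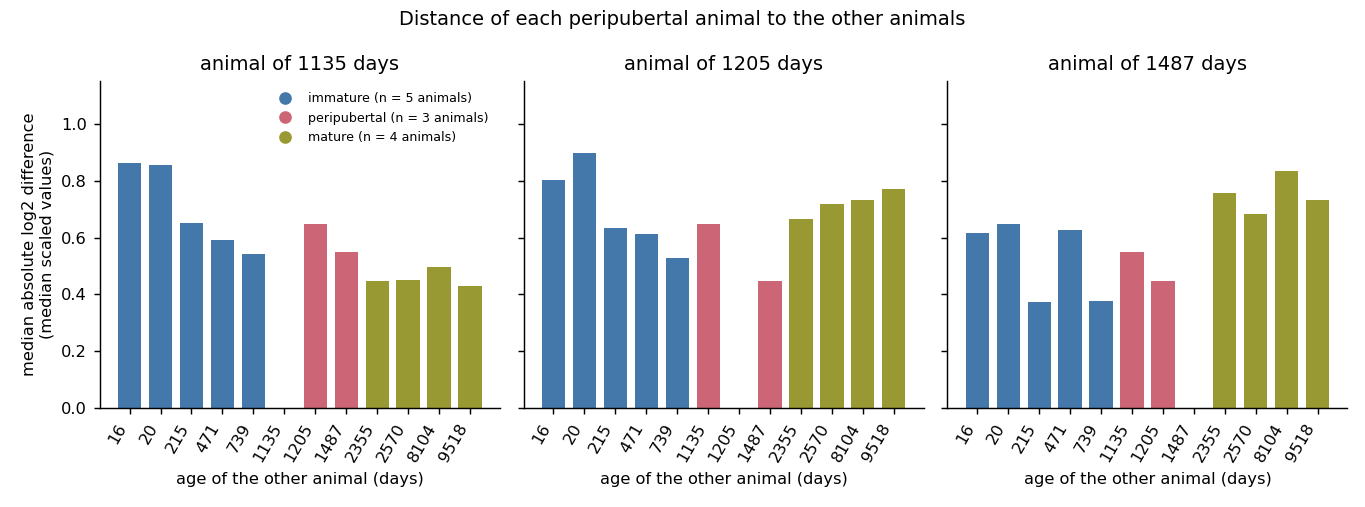
Median absolute log2 difference of median scaled values between each peripubertal animal and every other animal, over 164 names with a mean of at least 10 RPM. Bars start at 0 and are coloured by the group of the other animal: the mature bars are the lowest for the animal of 1135 days and are higher than those of the juveniles (215, 471 and 739 days) for the animals of 1205 and 1487 days.

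Counted name by name, the animal of 1135 days had 92 of the 322 tested names above all 5 immature animals (28.6%) and 67 below (20.8%) after scaling. The animal of 1205 days had 49 above (15.2%) and 100 below (31.1%), and that of 1487 days 39 above (12.1%) and 64 below (19.9%). As deposited these counts were 25 above (7.76%) and 138 below (42.9%) at 1135 days, 25 above (7.76%) and 63 below (19.6%) at 1205 days, and 28 above (8.7%) and 24 below (7.45%) at 1487 days. Names that differed at least 2-fold from the immature mean after scaling numbered 92, 68 and 35 in the 3 animals by age, and 124 to 146 in the mature animals. After scaling the animal of 1487 days had the fewest names above, below and past 2-fold of the 3 animals, while as deposited it had the most names above the immature range. Only its values were averaged over technical libraries, those of the other peripubertal animals being from single libraries. The part of this averaging in the counts was not tested.

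At 1135 days the names furthest above the immature mean, among those of at least 10 RPM, were miR-34c-5p, miR-34b*, miR-449a, miR-1323 and miR-7, and 4 of the 5 furthest below it were DLK1-DIO3 names, which made up 28 of the 178 names of that level (15.7%) and 12 of the 46 of them below all immature animals. miR-7, known from neuroendocrine tissue, was at 45.6, 71.8, 42.8, 108 and 67.2 RPM in immature animals, at 138, 83.1 and 120.1 RPM in peripubertal animals and at up to 774 RPM in mature animals. As deposited the animals of 1135 and 1487 days exceeded all immature animals, and after scaling only that of 1135 days did. miR-485-3p was at 61.3, 174, 32.7, 5.56 and 14.9 RPM in immature and at 1.10, 11.8 and 25.1 RPM in peripubertal animals. The animal of 1135 days was below all immature animals in miR-485-3p, miR-376b, miR-493*, miR-376c and miR-181d, and its level of miR-376b was 0.183 RPM, which is 1 read. miR-181d stood at 185 to 362 RPM in immature animals, 28.1 RPM at 1135 days, 357 RPM at 1205 days and 288 RPM at 1487 days, and at 12.99 to 92.0 RPM in mature animals.

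The animals of 1205 and 1487 days shared part of their extremes, some of which the animal of 1135 days shared too. miR-509-5p, an X-linked miRNA of the testis-rich miR-506 family, was at 63.3, 51.4, 50.1, 3.26 and 0.762 RPM in immature and at 18.2, 43.2 and 56 RPM in peripubertal animals. After scaling miR-509-5p was above all immature animals in each peripubertal animal. Its low immature values were those of 471 and 739 days, so that the log2 fold change, 1.13 over all immature animals (SE 1.03, limma adjusted p = 0.475), was 2.32 (SE 0.767, adjusted p = 0.539) against the juveniles and -0.67 (SE 0.857, adjusted p = 0.478) against the neonates. miR-383, described in the testis and the ovary, was at 654, 649, 319, 42.6 and 115 RPM in immature and at 56.5, 30.6 and 49.2 RPM in peripubertal animals. miR-130b was at 152, 189, 33.7, 8.24 and 17.5 RPM in immature and at 6.97, 5.99 and 10.2 RPM in peripubertal animals, and was below all immature animals in each of them after scaling. The scaled log2 fold changes of miR-383 and miR-130b were -1.63 (SE 0.442, limma adjusted p = 0.0911) and -1.66 (SE 0.481, adjusted p = 0.0979).

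Further names were outside the scaled immature range in 1 or both of these animals. miR-206, a skeletal muscle miRNA, was at 37.2 RPM at 1205 days against 2.20 and 4.17 RPM in the other peripubertal animals, and at 40.2 RPM at 215 days against at most 6.16 RPM in the other immature animals. miR-31 was at 159 RPM at 1205 days and 189 RPM at 1487 days, 24.2 RPM at 1135 days and 35.6 to 92.5 RPM in immature animals. miR-378, which lies in an intron of the metabolic regulator PPARGC1B, was at 618 RPM at 1487 days, with 583 and 654 RPM in its technical libraries, and at 71.9 and 170.2 RPM in the other peripubertal animals. The immature animals held 61.0 to 516 RPM of it. miR-584, miR-497 and miR-509-3p were likewise above all immature animals at 1487 days after scaling, at 35.2, 87.8 and 126 RPM. This was not particular to that animal. miR-497 and miR-509-3p, with 183 and 311 reads, were also above all immature animals at 1135 days after scaling, and miR-584 was at 1205 days. miR-30e* and miR-124 were so at 1205 days, at 43.0 and 26.8 RPM, and miR-145*, miR-126 and miR-369-3p were below all immature animals there, at 0.856, 1.07 and 0.428 RPM. miR-144*, from red blood cells, was at 1.07 RPM at 1205 days and 1.23 RPM at 1487 days, and at 1.73 to 23.4 RPM in immature animals.

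No let-7 name was called on either scale, and the list's scaled median was below 0 in each peripubertal animal. The family held the most abundant names of both groups, let-7f with 144651 ± 75989 RPM in immature (SD, n = 5) and 57315 ± 27196 RPM in peripubertal testis (SD, n = 3). let-7f was at 192413, 240854, 147343, 51319.6 and 91327 RPM in the immature animals by age and at 35796, 48268 and 87881 RPM in the peripubertal animals, which overlapped. After median scaling the groups did not overlap, with immature animals at 82193 to 108558 and peripubertal animals at 75066, 55465 and 72464. The scaled log2 fold change was -0.50 (SE 0.155, limma adjusted p = 0.115). Values were also scaled to the reads of all listed miRNAs. let-7 names held most of these, 417816 of 612400 RPM at 16 days and 90166 of 130072 RPM at 1135 days. That scaling divides let-7 largely by itself, so a value near 0 was largely set in advance and nothing is read from it. The log2 fold change was then -0.11 for let-7f (limma adjusted p = 0.574) and -0.03 for let-7a (adjusted p = 0.909). Of 10 tested names of the list 4 were lower at an unadjusted p under 0.05 as deposited (13.7% of all names) and 7 after scaling (10.9% of all names), with 0 higher. The list's median was -1.24 against -0.71 over all names, and -0.54 against -0.09 after scaling. By age its scaled medians in the peripubertal animals were -0.31, -0.86 and -0.46. let-7a and let-7g, the next in abundance, lay within the scaled immature range at 1135 days and below it at 1205 days. Reads of close family members can be split between names, which leaves the value of each name uncertain.

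As deposited, the DLK1-DIO3 names were called lower against the neonates and in 0 cases against the juveniles, a difference that was not tested. Of 41 tested 10 were lower at an unadjusted p under 0.05 as deposited, where 13.7% of all names were, and 7 after scaling, where 10.9% were, with a median of -1.23 as deposited and -0.63 after scaling. Against the neonates alone limma called all 41 lower on the deposited values, where 47.2% of all tested names were. The median there was -2.66 where all names had -1.38, and this contrast was not fitted after median scaling. Against the juveniles alone the median was -0.26 where all names had -0.13. The scaled median of the list was 0.55 and 0.76 in the neonates by age and moved within the immature stage itself, to -0.72 at 471 days. It was -0.78, -0.73 and -0.20 in the peripubertal animals by age and -1.10 to -1.63 in mature animals. miR-485-5p was at 683, 693, 201, 113 and 131 RPM in immature and at 46.1, 102 and 148 RPM in peripubertal animals. miR-411 was at 356, 859.8, 259, 56.7 and 140.2 RPM in immature and at 33.0, 53.9 and 130.1 RPM in peripubertal animals. After scaling both were below all immature animals in each peripubertal animal, with log2 fold changes of -0.85 (SE 0.402) and -1.15 (SE 0.342) and limma adjusted p-values of 0.25 and 0.101. miR-127-3p went another way, at 48.4, 229.9 and 193 RPM in peripubertal animals, those of 1205 and 1487 days above all 3 juveniles, which held 73.8 to 185 RPM.

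X-linked miRNAs were taken as the miR-506 family and the others. In the miR-506 family of 12 tested names limma called 0 on either scale, with 0 at an unadjusted p under 0.05 as deposited and 2 higher after scaling (9.01% of all names), while the median was -0.35 as deposited and 0.36 after scaling. The scaled medians of the peripubertal animals were 0.10, 0.54 and 0.74 by age. The median at 1135 days lay within those of the immature animals, -0.23 to 0.30. After scaling 4 of the 12 names were below all immature animals at 1135 days and 2 above (20.8% and 28.6% of all names). At 1205 and 1487 days 0 were below (31.1% and 19.9% of all names), and 5 and 8 were above (15.2% and 12.1%). The animal of 1135 days was thus apart from the other two in part of the list only. miR-513c, whose reads equal those of miR-513b, stood at 61.6 RPM at 1135 days, below all immature animals (131 to 545 RPM), and at 479 and 537 RPM at 1205 and 1487 days. miR-510, the most abundant, was at 817 to 2583 RPM in immature animals and at 635, 1428 and 1823 RPM in peripubertal animals. Among 33 other X-linked names 7 were lower at an unadjusted p under 0.05 as deposited (13.7% of all names) and 4 after scaling (10.9% of all names), the latter near the share over all names, with medians of -0.93 and -0.32. The most abundant of them, miR-424, was at 1301, 2214, 1087, 172 and 588 RPM in immature and at 120.2, 214 and 595 RPM in peripubertal animals, and its log2 fold change was -1.67 (SE 0.756, limma adjusted p = 0.302) as deposited and -0.92 (SE 0.361, adjusted p = 0.205) after scaling. Its neighbour miR-503 was at 328 to 1827 RPM in immature animals and 117, 491 and 423 RPM in peripubertal animals. The miR-888 cluster, known from epididymis, had 0 tested names, and its sum was at most 0.642 RPM in the 8 animals.

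The C19MC cluster, a primate miRNA cluster known from the placenta, had 51 names, of which 26 were tested and 10 reached the filter through immature animals alone. A further 10 of the tested names reached 1 RPM in no immature animal, so that no count over the cluster is read here. Its summed level over all names was 46.8, 44.0, 40.8, 57.9 and 95.2 RPM in immature and 132, 95.3 and 110.5 RPM in peripubertal animals. The juvenile of 739 days and the peripubertal animal of 1205 days were almost equal, and the mature animals held 195 to 436 RPM. miR-1323, the most abundant member, was at 19.3, 18.8, 11.1, 22 and 27.4 RPM in immature and at 57.8, 34 and 42.8 RPM in peripubertal animals, without overlap. Its log2 fold change was 1.17 (SE 0.648, limma adjusted p = 0.323) and 1.86 (SE 0.586, adjusted p = 0.118) after scaling, where the animals of 1205 and 1487 days lay below the juvenile of 471 days. miR-516b was at 9.20 to 24.6 RPM in immature animals and at 16.3, 21.0 and 23.3 RPM in peripubertal animals. In the miR-302 and miR-371 clusters, known from pluripotent and early germ cells, miR-371-5p was at 38.5 to 119 RPM in immature and 51.9, 99.8 and 107 RPM in peripubertal animals, and miR-372 at 28.2 to 104 RPM and 78.2, 107 and 81.3 RPM.

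**Figure D4:**
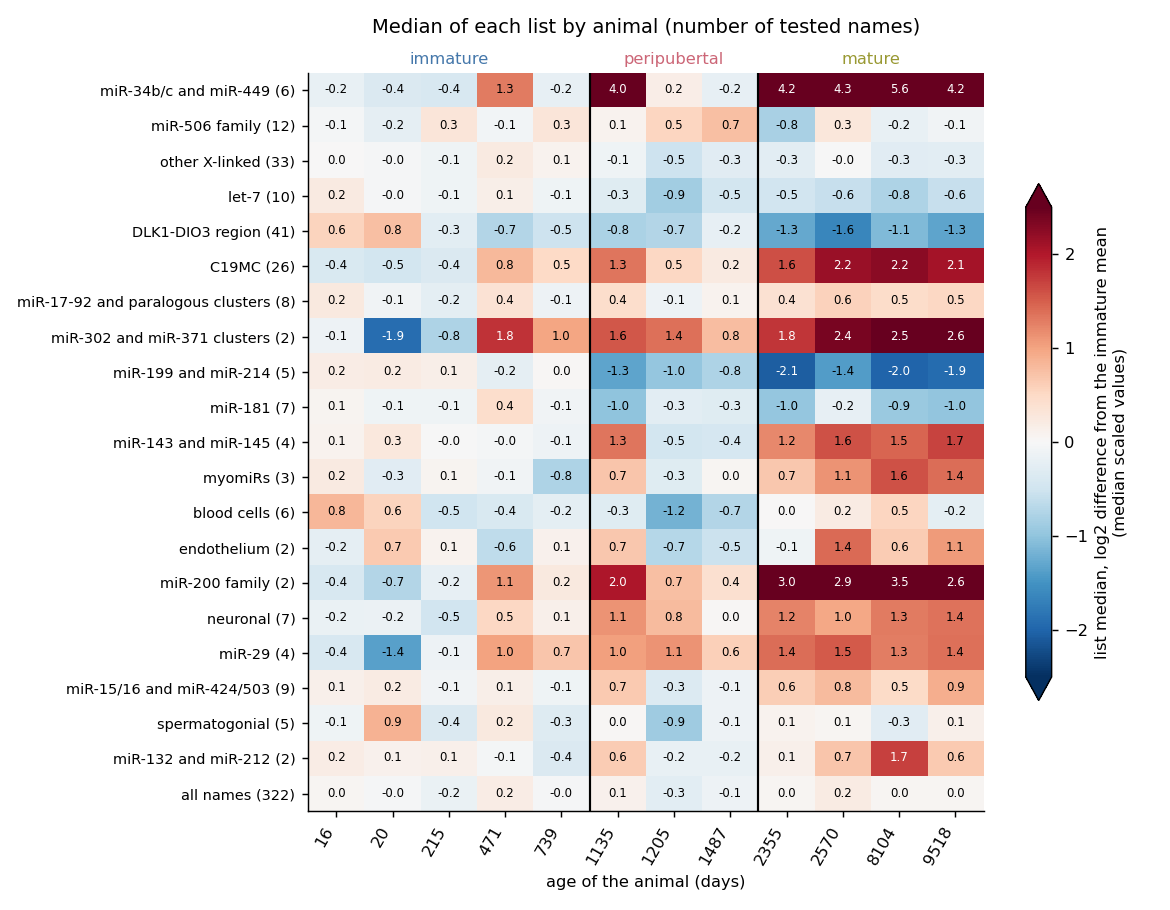
Median over the tested names of each list (number of names in brackets) of the median scaled log2 difference from the immature mean, for each animal by age in days. Red is higher and blue lower than the immature mean: for miR-143 and miR-145 the column of 1135 days (1.35) lies among the mature columns (1.21 to 1.69) and those of 1205 and 1487 days (-0.46 and -0.41) do not, while for let-7 that of 1135 days (-0.31) is further from the mature columns (-0.48 to -0.78) than that of 1487 days (-0.46). Germ cell, C19MC and miR-200 lists hold names that reached 1 RPM in no immature animal, so their colours are not compared.

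Markers of somatic cell types also differed among the peripubertal animals. The list of miR-143 and miR-145, miRNAs of smooth muscle and peritubular cells, held 4 names, of which 4 were above the scaled immature range at 1135 days and 0 at 1205 and 1487 days, where 28.6%, 15.2% and 12.1% of all tested names were. The scaled list medians were 1.35, -0.46 and -0.41 in the peripubertal animals by age, and 1.21 to 1.69 in the mature animals. As deposited miR-143 was at 4539.6, 9641, 3701, 801 and 1843 RPM in immature and 2479, 1117 and 2167 RPM in peripubertal animals, with no name of the list outside the immature range at 1135 days. The muscle miRNA miR-1 was at 577 to 3376 RPM in immature animals and at 1075, 572 and 634 RPM in peripubertal animals, and miR-499-5p at 9.78 to 53.1 RPM and 17.2, 15.4 and 33.6 RPM. Epithelial miR-200a was at 2.86 to 5.37 RPM in immature and 7.16, 8.78 and 7.20 RPM in peripubertal animals, without overlap, and at 15.1 to 55.5 RPM in mature animals. After scaling the animals of 1205 and 1487 days, at 10.1 and 5.94, lay below the juvenile of 471 days, at 11.4. miR-200a was chosen after its values were seen.

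Blood cell names summed to 548, 499.7, 164, 47.5 and 125 RPM in immature animals and to 58.5, 46.5 and 103 RPM in peripubertal animals. Of 6 tested 3 were lower at an unadjusted p under 0.05 as deposited (13.7% of all names) and 1 after scaling (10.9% of all names), with a median of -1.42 and -0.73. miR-451 of red blood cells was at 374, 216, 99.4, 33.4 and 61.9 RPM in immature and at 33.2, 27.2 and 37.4 RPM in peripubertal animals, and its log2 fold change was -1.76 (SE 0.743, limma adjusted p = 0.302) as deposited and -1.02 (SE 0.484, adjusted p = 0.255) after scaling. miR-486-5p, also of red cells, was at 5.94 to 73.3 RPM in immature animals and 4.40, 5.35 and 10.001 RPM in peripubertal animals, and miR-142-5p of white cells at 5.37 to 166 RPM and 17.1, 11.3 and 51.2 RPM. Endothelial miR-126 was at 1.73 to 26.6 RPM in immature animals and 4.95, 1.07 and 3.11 RPM in peripubertal animals. The part of blood, vessel and muscle content in the other differences was not tested. miR-122, known from liver, was at 253, 41.9, 104, 25.3 and 13.1 RPM in immature and at 9.36, 16.7 and 9.17 RPM in peripubertal animals.

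The other lists are described by their most abundant names. miR-29a was at 1835 to 3273 RPM in immature animals and at 2257, 3518 and 4479 RPM in peripubertal animals, and its log2 fold change was 0.38 (SE 0.641, limma adjusted p = 0.675) as deposited and 1.12 (SE 0.399, adjusted p = 0.188) after scaling. miR-29c was at 201 to 359 RPM in immature and 167, 409.9 and 463 RPM in peripubertal animals, and miR-29b at 14.3 to 24.4 RPM and 19.3, 31.0 and 23.9 RPM. Neuronal miR-128 was at 29.1 to 248 RPM in immature and 62.0, 83.7 and 103 RPM in peripubertal animals, where the scaled list medians were 1.13, 0.80 and 0.02 by age. In the miR-17-92 and related clusters, known from cell proliferation, the list median was -0.66 as deposited and 0.07 after scaling, close to those of all names. miR-25 was at 77.6 to 558 RPM in immature and 122, 158 and 312 RPM in peripubertal animals, and miR-92a at 25.7 to 139.9 RPM and 34.3, 68.1 and 66.0 RPM. Among miRNAs described in spermatogonia, miR-21 was at 689 to 3877 RPM in immature animals and 786, 719 and 1319 RPM in peripubertal animals, and 0 of 5 names passed an unadjusted p of 0.05 on either scale. miR-182 of the miR-183 cluster was at 1.14 to 8.11 RPM and 0.734, 1.5 and 2.53 RPM, miR-132 was at 0.190 to 3.24 RPM and 0.550, 0.214 and 0.952 RPM, while miR-202 was not among the deposited names.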

How the data were processed

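The authors deposited 1 table of RPM values for 538 miRNA names with human prefixes in 14 libraries. Per the labels' protocols, Trizol RNA from frozen tissue was ligated to adapters with the Illumina small RNA kit and sequenced on a Genome Analyzer. Bowtie and CASAVA 1.4 are named in the submitters' processing notes. As to genome build, annotation and the reads that make up the RPM total, nothing is stated in the sources used here. All 100% of the deposited RPM values came out as whole reads within 0.01 reads, so reads and library totals were recovered. A read was worth 0.178 to 0.228 RPM in the 10 libraries used, and the 95% Wilson intervals of the listed shares reached at most 0.0505 percentage points to either side. The reads went through PCR and carry no molecular identifiers, so such intervals and the limit of 3 reads for a count of 0 cover counting error only.

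Names were tested with limma 3.58.1 (R 4.3.3, trend and robust) on log2(RPM + 1), in 1 model of immature, peripubertal and mature animals, and p-values were adjusted over all 322 names by the Benjamini-Hochberg method, with calls at an adjusted p under 0.05. Such fold changes understate those of low names. Technical libraries were averaged on the log scale for the limma tests, while printed RPM values of an animal are arithmetic means. Nothing says whether tissue pieces or RNA were shared between technical libraries. edgeR 4.0.16 (quasi-likelihood) and DESeq2 1.42.0 were run on the recovered reads with their own scaling, and 0 and 22 names were called. For both, the reads of technical libraries were summed, so the animals of 16 and 1487 days entered with the reads of both their libraries. Other settings were median scaling, scaling to the listed reads, other pseudocounts and filters, other reference ages, technical libraries singly, libraries numbered 1 to 7 or 8 to 14, and leaving out animals. Leaving out each animal after median scaling, the 8 animals alone after median scaling, and the listed share against juveniles were added after the data were seen. The limma fit was also run on simulated reads with known changes, drawn from the means and spread of these data. Apart from the set changes, all simulated animals had the same listed share, unlike the real ones.

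Pairs with equal reads (miR-199a-3p with miR-199b-3p, miR-513b with miR-513c, within 2%) were counted once in the listed share. Of the 538 names 493 matched a rhesus RefSeq miRNA gene by name; no coordinates are given, as the build of the table is not known. Named miRNAs are those separated on both scales with a mean of at least 10 RPM, those called, the 3 most abundant names of each list, the 5 most abundant of each group, and the 5 furthest outside the immature range in each direction in each peripubertal animal. The groups, members and lists were chosen with earlier results of these data known.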

Additional observations from a re-analysis of the deposited data

Results flagged for a closer look

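In 5 results 1 immature animal stood apart from the other 4, with a gap to its nearest neighbour that took up more than 0.71 of the range of the 5 animals (Dixon's rule). For normally distributed values chance flags about 1 in 20 groups in this way, and 66 names were looked at. The rule was applied to deposited RPM, which the listed share moves, and not to scaled values. At 471 days miR-34c-5p was at 985 RPM, where the next animal held 145 RPM, miR-34b* was at 2.30 RPM against 0.431 RPM, and miR-449a at 3.64 RPM against 0.977 RPM. These are 3 members of 1 family in 1 library, and they are the values that lie above the peripubertal animals of 1205 and 1487 days. miR-206 was at 40.2 RPM at 215 days against 6.16 RPM in the next animal. miR-222 was at 668 RPM at 20 days against 234 RPM, and the animal of 20 days had the highest listed share, 79.3%.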

How the results depend on the processing

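No miRNA was called as deposited, and the count stayed at 0 under both other pseudocounts, without a filter on low values, with a mean of at least 10 RPM, after scaling to listed reads, with the 8 animals alone, against juveniles, with either technical library, within either library series or with series as a term, and with edgeR. It was 3 after median scaling, 77 with neonates and juveniles as separate stages, 154 against neonates, 69 without the animals of 471 and 1487 days and 22 with DESeq2, and 50 names had an unadjusted p under 0.05. Leaving out each animal gave 0 to 60 calls, the 60 without that of 471 days, which was the only one of the 8 whose absence gave a call. After median scaling it gave 3 without that of 16 days, 2 without each of those of 20, 1135 and 1487 days, 4 without the one of 739 days, 0 when either the animal of 215 or that of 1205 days was left out, and 18 without the juvenile of 471 days. The cause was not tested. The listed share was lower in peripubertal testis under each alternative and passed under none, though the juveniles and each library series alone allow no p below 0.1, with differences of -18.6 to -34.4 percentage points when an animal was left out. Of 694 alternative values of 29 fold changes 608 kept direction and side of the threshold, 85 passed it, and 1 reversed: miR-509-5p, at -0.67 against neonates. These 694 leave out edgeR, DESeq2 and the further fits after median scaling. No name was called as deposited, so a kept side means only that there was still no call. The size could change much, as for let-7a, at -1.15 as deposited and -0.03 after scaling to listed reads. Most listed reads were let-7 reads, so that small value was largely set in advance. No paired analysis was possible because the replicate numbers in the labels mark technical libraries of 1 animal and pair no samples between the groups. With 3 peripubertal animals that differ as described, group means and their tests have low precision, and names under 1 RPM rest on 5 reads or fewer per library.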
